A study of Mus musculus with 24 samples.

Results

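The 34 genes described here encode the protein lattice on the receiving side of brain synapses: the scaffolds of the postsynaptic density, the adhesion proteins that face the presynaptic terminal, and the scaffold gephyrin of inhibitory synapses. They were taken from a named list, matched by gene symbol, out of 52636 gene identifiers counted in mouse brain. All 34 were found, and all 34 passed the filter on low counts, which left 19726 genes to test. Their lowest count in any library was 924, for Grip1, and together they took 1.26 to 1.69% of the gene counts of a library.

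The study sequenced total RNA from the brains of mice in which the glutamate transporter EAAT2, encoded by Slc1a2, was reduced in neurons or in astrocytes. Each of 4 groups held 6 mice. The syn line carried Cre recombinase under what the labels call syn, a neuronal driver, and its Cre-positive mice were labelled syn-Cre+ EAAT2−/− while its Cre-negative mice were labelled syn-Cre− EAAT2+/+. The gfap line carried Cre under gfap, an astrocyte driver, and its Cre-positive mice, labelled gfapCre+ EAAT2Δ/+, keep 1 unaltered allele by that label, while its Cre-negative mice were labelled gfap-Cre− EAAT2+/+. Ages, sexes and the part of the brain are not given in the labels, and the samples are called brain. Whole tissue holds cells with and without Cre, and in bulk RNA fewer cells of a type and less RNA per cell cannot be told apart.

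Libraries held between 41596313 and 69652824 gene counts each. Slc1a2 ran from 2616 to 3235 CPM (counts scaled to the size of the library) in the syn Cre-positive libraries and from 3227 to 3461 CPM in the syn Cre-negative ones. It ran from 3043 to 3855 CPM in the gfap Cre-positive libraries and from 2494 to 3980 CPM in the gfap Cre-negative ones. Neither difference passed the test (log2 fold change −0.14, adjusted p 1.00, in the syn line, and −0.02, adjusted p 1.00, in the gfap line, edgeR quasi-likelihood). A count over the whole gene need not fall when part of a gene is deleted, and no source used here gives the deleted part, so these counts do not check the genotype labels. Neuron genes were high throughout (Slc17a7 1030 to 1686 CPM), and genes of hippocampal neurons were present in every library (Prox1 72.2 to 134 CPM). Of 8 cerebellar genes, Gabra6 was at most 0.132 CPM and at 0 in 9 libraries, while Zic1 reached 85.0 CPM and Calb2 56.75 CPM. Of 8 striatal genes, Drd1 was at most 7.58 CPM, while Ppp1r1b ran from 25.3 to 51.15 CPM and Pde10a from 57.15 to 95.7 CPM. The share of reads outside genes was 7.52 to 11.1% of a file in syn libraries and 4.47 to 6.37% in gfap libraries, with no overlap, so the lines also differ as sets of libraries. The 11.1% was in syn Cre-negative replicate 5, and the next highest syn share was 8.63%. That library also had 7.46% ambiguous and 4.71% unaligned reads, where the highest of any other library were 3.92% and 2.25%.

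At an excitatory synapse, membrane-associated guanylate kinases encoded by the Dlg genes hold glutamate receptors beneath the membrane. Dlg-associated proteins tie them to Shank and Homer proteins, which reach towards metabotropic receptors and the actin cytoskeleton of the spine. Neuroligins and leucine-rich repeat proteins bind neurexins across the cleft, and the calcium-dependent kinase encoded by Camk2a and Camk2b is a major enzyme of the same structure.

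Per kilobase of exon, the levels of the 34 genes spanned from 551 RPKM (reads per kilobase of exon, scaled like CPM) for Nrgn, the calmodulin-binding protein neurogranin, down to 3.08 RPKM for Grip1, a PDZ protein that binds AMPA receptors, as means of 24 libraries. Camk2a at 529 RPKM and Ddn, the dendritic protein dendrin, at 506 RPKM stood beside Nrgn, and Camk2b followed at 150 RPKM. Dlg4, the main guanylate kinase scaffold of excitatory synapses, came next at 55.8 RPKM. Within its family Dlg4 made up 41.7 ± 0.573% of the summed Dlg RPKM in syn Cre-positive libraries and 40.9 ± 0.988% in syn Cre-negative ones (SD, n = 6 each). The corresponding shares were 42.5 ± 1.12% in gfap Cre-positive and 42.5 ± 0.986% in gfap Cre-negative libraries. Nlgn2, the neuroligin of inhibitory synapses, took 76.3% of neuroligin RPKM in syn Cre-positive libraries and between 75.0 and 77.5% in the other groups. RPKM here divides by the summed length of all annotated exons of a gene, so a gene whose long exons are seldom used is placed too low.

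**Figure D1:**
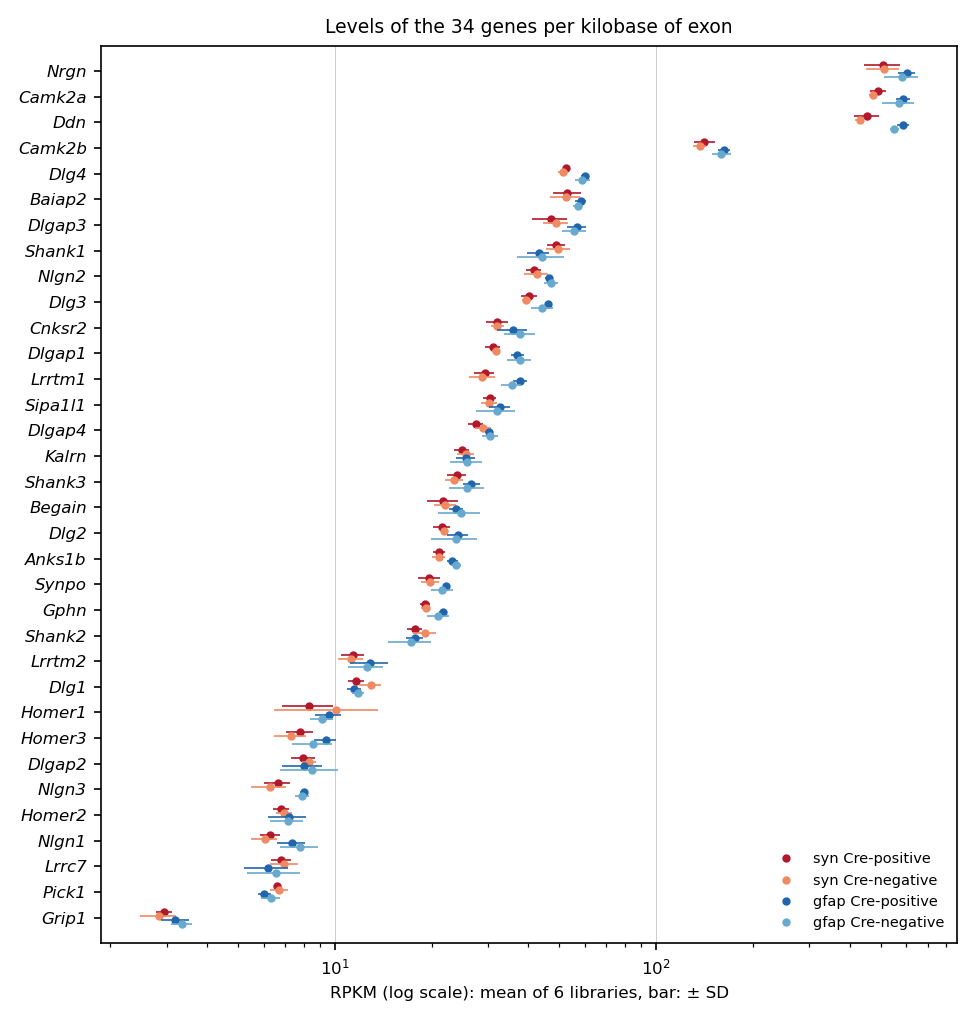
Levels of the 34 genes in RPKM (log axis), ordered by the mean of all 24 libraries, with a point and SD bar per group of 6 libraries. Nrgn, Camk2a and Ddn average 551, 529 and 506 RPKM and stand well to the right, and Grip1 averages 3.08 RPKM.

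The first question is whether these genes moved with the labelled loss of the transporter in neurons or its labelled partial loss in astrocytes. Cre-positive libraries against Cre-negative libraries of the same line address it. No member passed an adjusted p of 0.05 in the syn line, the gfap line or the difference between the lines, and the Cre-positive and Cre-negative libraries overlapped for every member. The background was as low: 0.00507% of all genes tested were called in the syn line, and 0.0101% in the gfap line and 0.0101% in the difference (edgeR quasi-likelihood, Benjamini-Hochberg over all genes). Over all genes, 0.0963% had every Cre-positive library below every Cre-negative one and 0.106% above in the syn line, and 0.076% and 0.122% in the gfap line. At an unadjusted p under 0.05 the counts were 1 of 34 in the syn line against 4.67% of all genes, 0 of 34 in the gfap line against 2.99%, and 0 of 34 in the difference against 3.5%. DESeq2 and both limma-voom fits also called 0 of 34 in each of these comparisons. The median log2 fold change of the 34 genes was −0.0044 in the syn line and 0.023 in the gfap line. Negative values were held by 19 of 34 in the syn line, against 51.4% of all genes, by 14 in the gfap line, against 51.2%, and by 21 in the difference, against 49.7%. These counts and the signs of the medians turn on single libraries. Without syn Cre-positive replicate 5 the syn line had 12 negative and a median of 0.03, and the difference had 15 and 0.01 in place of a median of −0.01. Without gfap Cre-negative replicate 4 the gfap line had 20 negative and a median of −0.03, and the difference had 13 and 0.03. Medians within 0.01 of 0 on the other side were left by dropping syn Cre-negative replicates 1 or 5 in the syn line, or gfap Cre-positive replicate 2 in the difference. Scaled to 10 genes used by all neurons, 6 members were negative in the gfap line, with a median of 0.07. The median of all genes in that line also moved, from −0.003 to 0.04. Leaving out Homer1, the 95% intervals of the members lay between −0.28 and 0.27 in the syn line and between −0.31 and 0.30 in the gfap line.

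Dlg1, a guanylate kinase scaffold that also traffics AMPA receptors, had the smallest p in the syn line. Its lowest, median and highest libraries were at 113, 126 and 134.5 CPM in syn Cre-positive brains, against 124, 141 and 154 CPM in syn Cre-negative brains. The groups overlapped, with 2 of 6 Cre-positive libraries below every Cre-negative one. The log2 fold change was −0.15 ± 0.05 (SE), with an unadjusted p of 0.00638 and an adjusted p of 0.781 by edgeR. In the gfap line Dlg1 lay at 112, 125 and 128 CPM in Cre-positive and 119, 126.5 and 136 CPM in Cre-negative brains, and the difference between the lines was −0.11 with an interval from −0.26 to 0.04.

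Homer1 had the widest interval of the 34. This gene makes both the long scaffold form of Homer and a short form that neuronal activity induces, and gene-level counts do not tell them apart. It had 78.2, 96.9 and 131 CPM as lowest, median and highest in syn Cre-positive libraries, against 83.2, 108 and 188 CPM in syn Cre-negative ones. The Cre-negative spread came from 3 libraries at 127.5, 150.1 and 188 CPM, while the other 3 lay between 83.2 and 89.3 CPM, inside the Cre-positive range. The log2 fold change of −0.27 had an interval from −0.62 to 0.08 (unadjusted p 0.122, adjusted p 1.00). In the gfap line the log2 fold change was 0.07 with an interval reaching 0.42, and the difference between the lines, −0.34, had an unadjusted p of 0.164.

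The other members with the smallest p were Ddn, Dlgap4, Lrrtm1, Homer3, Pick1, Shank2 and Nlgn1. Ddn had 1496, 1716 and 1959 CPM as lowest, median and highest in syn Cre-positive libraries, against 1583, 1614 and 1718 CPM in syn Cre-negative ones (log2 fold change 0.08, unadjusted p 0.119). In the gfap line it had 2097, 2220 and 2372 CPM in Cre-positive libraries, against 2013, 2090 and 2153 CPM in Cre-negative ones (0.09, unadjusted p 0.0685). Thus Ddn averaged higher with Cre in both lines, by less than the spread allows to call. Dlgap4 in the syn line had a log2 fold change of −0.08 (unadjusted p 0.11), while Lrrtm1, Homer3 and Pick1 in the gfap line had 0.09, 0.13 and −0.07 (unadjusted p 0.145, 0.148 and 0.168). For the difference between the lines, Shank2 had −0.15 and Nlgn1 0.14, each with an interval that crosses 0.

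**Figure D2:**
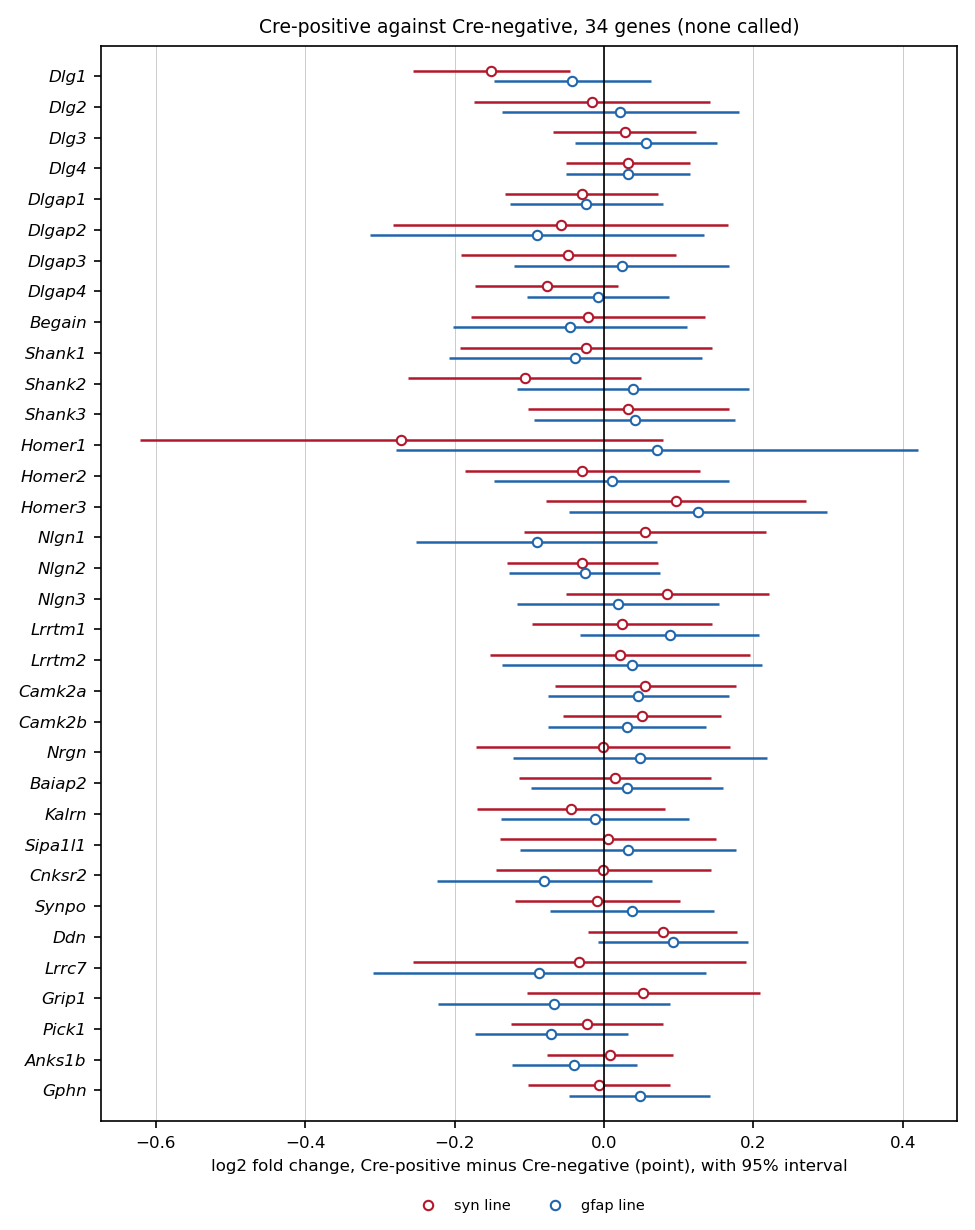
Log2 fold change of Cre-positive minus Cre-negative libraries for each of the 34 genes, with its 95% interval, in the syn line (red, upper) and the gfap line (blue, lower). Every adjusted p is above 0.05, and the interval of Homer1 is the widest, from −0.62 to 0.08 in the syn line.

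Comparing the lines at the same Cre status gave many more calls. Among Cre-positive brains, 17 of 34 members were lower in the syn line than in the gfap line and 1, Pick1, was higher, where 14.7% of all genes tested were lower and 12.8% higher. Among Cre-negative brains, a comparison that shares no library with the first, 16 of 34 were lower and 0 higher, where 16.6% of all genes were lower and 14.6% higher. The same 14 members were lower in both, against 10.6% of all genes, and 0 were higher in both, against 9.29%. Negative log2 fold changes were held by 29 of 34 among Cre-positive brains, against 53.4% of all genes, and by 28 among Cre-negative brains, against 52.7%. The median log2 fold change of the 34 was −0.16 among Cre-positive and −0.15 among Cre-negative brains, where the median of all genes tested was −0.02 in each. Ddn, Lrrtm1 and, by a narrow gap, Dlg4 had all 12 syn libraries below all 12 gfap libraries, as did 2.13% of all genes. All 12 lay above for 0 members and for 2.28% of all genes. Among Cre-positive libraries alone, 10 members had every syn library below every gfap library, against 7.64% of all genes, and 1 had them above, against 5.65%. Among Cre-negative libraries alone the counts were 7 below, against 5.43%, and 0 above, against 5.54%. Line, breeding background, sequencing batch and any other feature shared by the libraries of a line cannot be told apart. A scaling that sets the libraries equal on 10 genes used by all neurons, such as Nefl and Eno2, left 15 of 34 members negative among Cre-positive and 10 among Cre-negative libraries. That scaling moved the median of all genes as well, from −0.02 in each to 0.15 and 0.19. Of the members called lower, 4 and 6 turned positive under it, and their values are given with each. Among Cre-positive libraries 10 members that were not called turned positive as well: Dlg2, Dlgap2, Begain, Shank3, Homer2, Baiap2, Kalrn, Sipa1l1, Cnksr2 and Grip1. Among Cre-negative libraries the 12 such members were Dlg2, Dlgap2, Dlgap4, Begain, Shank3, Homer2, Lrrtm2, Nrgn, Baiap2, Kalrn, Sipa1l1 and Synpo. The counts depend on how libraries are scaled: with RLE factors in place of TMM the split over all genes moved from 2517 higher and 2899 lower to 2758 higher and 1996 lower among Cre-positive libraries, and from 2884 higher and 3277 lower to 3061 higher and 2734 lower among Cre-negative ones.

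**Figure D3:**
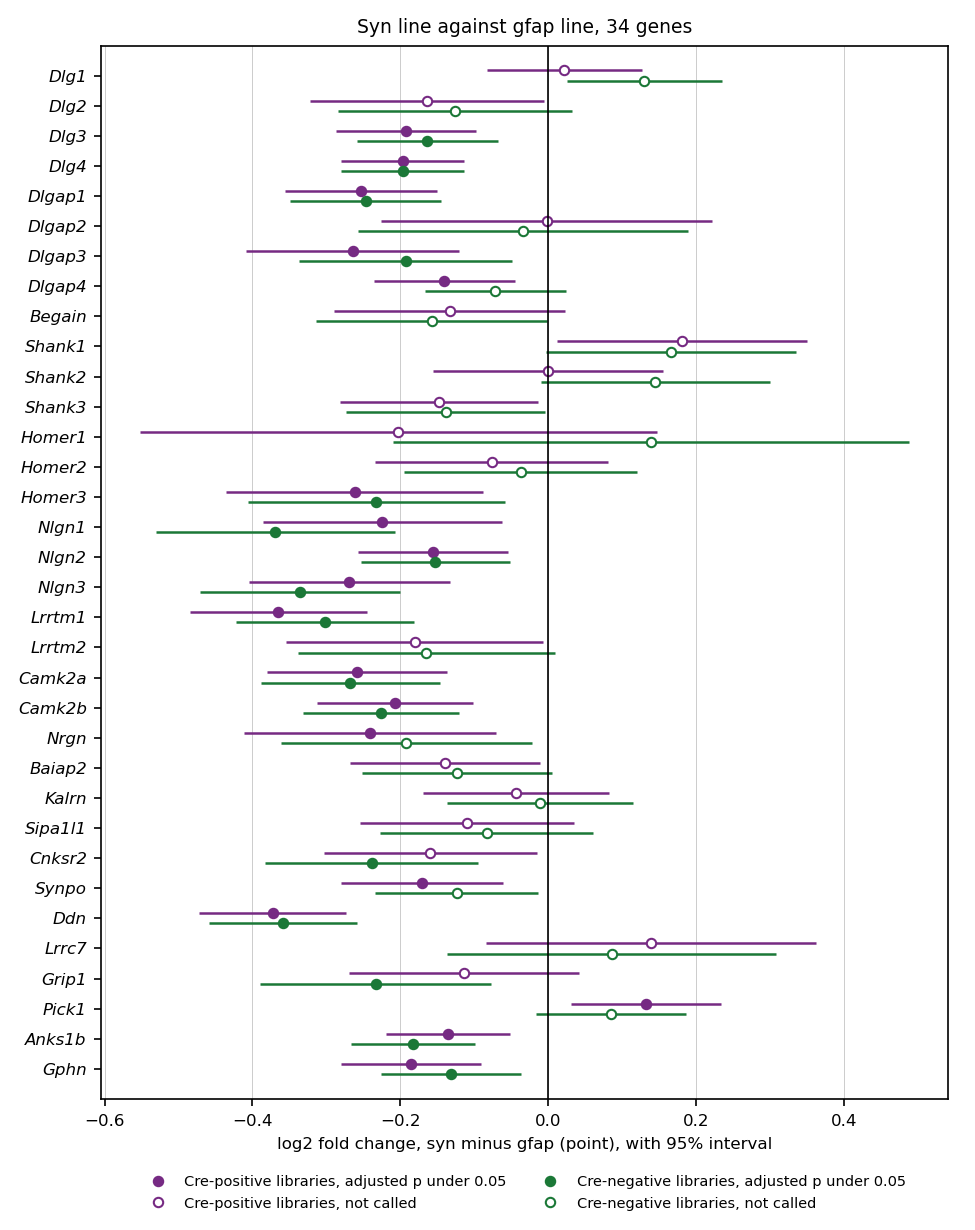
Log2 fold change of syn minus gfap libraries for each of the 34 genes with its 95% interval, among Cre-positive (purple, upper) and Cre-negative (green, lower) libraries; filled points have an adjusted p under 0.05. Ddn and Lrrtm1 lie farthest to the left in Cre-positive libraries at −0.37 and −0.36. Most points lie left of 0, and Dlg1, Shank1, Shank2, Lrrc7 and Pick1 do not, nor does Homer1 in Cre-negative libraries at 0.14. Scaled to the pan-neuronal genes, filled points such as Nlgn2 and Anks1b move to the right of 0, while the median of all genes moves to 0.15 and 0.19.

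Ddn had the smallest p of the 34 in each comparison. Its gene (ENSMUSG00000059213) lies on the minus strand at chr15:98803777-98809490 of GRCm38, and in rat its messenger RNA is known to travel into dendrites. The lowest, median and highest values were 1496, 1716 and 1959 CPM in syn Cre-positive brains, against 2097, 2220 and 2372 CPM in gfap Cre-positive brains. Among Cre-negative brains they were 1583, 1614 and 1718 CPM in the syn line, against 2013, 2090 and 2153 CPM in the gfap line. The highest syn library thus lay under the lowest gfap library of either genotype. Log2 fold changes were −0.37 ± 0.05 among Cre-positive (adjusted p 7.60e-06, edgeR) and −0.36 ± 0.05 among Cre-negative brains (adjusted p 9.70e-06), reductions of 22.8% and 22.0%. Exons of Ddn overlap the antisense transcript B130046B21Rik, which these counts may not keep apart, and the same holds for Dlgap1, Dlgap4, Gphn and Nlgn1 with noncoding transcripts of the other strand.

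Among the adhesion genes, Lrrtm1, Nlgn1, Nlgn2 and Nlgn3 were lower in both comparisons and Lrrtm2 was not called in either. Lrrtm1 (ENSMUSG00000060780, chr6:77242689-77257791, plus strand), a postsynaptic leucine-rich repeat protein that binds neurexins, had 79.4, 89.0 and 98.3 CPM as lowest, median and highest in syn Cre-positive brains, against 104, 116 and 119 CPM in gfap Cre-positive brains. In Cre-negative brains it had 77.9, 85.6 and 99.55 CPM in the syn line, against 101, 106 and 122 CPM in the gfap line. No syn library reached a gfap library, and the log2 fold changes were −0.36 (adjusted p 7.76e-05, edgeR) and −0.30 (adjusted p 0.00042).

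Nlgn3, a neuroligin found at excitatory and inhibitory synapses, had 54.8, 61.7 and 68.4 CPM in syn Cre-positive brains, against 71.0, 74.2 and 76.9 CPM in gfap Cre-positive brains. Among Cre-negative brains its values were 46.3, 57.8 and 66.1 CPM in the syn line, against 67.9, 73.4 and 77.8 CPM in the gfap line. Neither pair of groups overlapped (log2 fold changes −0.27 and −0.34, adjusted p 0.00387 and 0.000474 by edgeR). Exons of Nlgn3 overlap a transcript annotated on the same strand, Gm21986, so some of its reads may have been set aside as ambiguous.

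Nlgn1, the neuroligin of excitatory synapses, spread more. It had 74.0, 85.3 and 91.6 CPM in syn Cre-positive brains, against 85.5, 97.1 and 112.5 CPM in gfap Cre-positive brains, and the groups overlapped (log2 fold change −0.22, adjusted p 0.0345). Among Cre-negative brains it had 68.7, 81.5 and 90.9 CPM in the syn line, against 82.99, 104.5 and 122 CPM in the gfap line, also with overlap (−0.37, adjusted p 0.001). Nlgn2 had 228, 240.1 and 258 CPM in syn Cre-positive against 257.5, 270.4 and 274 CPM in gfap Cre-positive brains (−0.16, adjusted p 0.0203, a value of 0.02 when scaled to the pan-neuronal genes). Its Cre-negative values were 219.5, 248 and 275 CPM in the syn line, against 249.6, 272.5 and 289 CPM in the gfap line (−0.15, adjusted p 0.0203, a value of 0.05 under that scaling). Lrrtm2, which lies inside the gene Ctnna1 and cannot be counted apart from it with certainty, had log2 fold changes of −0.18 and −0.16 with adjusted p 0.115 and 0.142.

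Both measured subunits of the calcium-dependent kinase were lower in the syn line. Camk2a, the alpha subunit, had 3305, 3670 and 3916 CPM in syn Cre-positive brains, against 4039, 4483 and 4590 CPM in gfap Cre-positive brains, with no overlap. Among Cre-negative brains it had 3352, 3549 and 3646 CPM in the syn line, against 3323, 4347 and 4679 CPM in the gfap line, where 1 gfap library at 3323 CPM fell below every syn library and the other 5 lay at 4211 CPM or more. Log2 fold changes were −0.26 (adjusted p 0.00222, edgeR) and −0.27 (adjusted p 0.00131). Camk2b, the beta subunit that also binds actin, had 1187, 1262 and 1424 CPM in syn Cre-positive against 1391, 1482 and 1583 CPM in gfap Cre-positive brains (−0.21, adjusted p 0.00424). Its Cre-negative values were 1149, 1251 and 1320 CPM in the syn line, against 1360, 1430 and 1590 CPM in the gfap line, with no overlap (−0.23, adjusted p 0.00166). Camk2a held 77.6 ± 0.737% of the RPKM of the 2 subunits in syn Cre-positive and 78.2 ± 0.601% in gfap Cre-positive brains (SD, n = 6 each), a difference within the spread. Nrgn was called among Cre-positive brains only, at −0.24 (adjusted p 0.0316), with −0.19 (adjusted p 0.0794) among Cre-negative ones, and the difference between these values, the same as that of the Cre contrasts, was not called.

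Of the guanylate kinase scaffolds, Dlg3 and Dlg4 were lower in both comparisons, Dlg2 was not called, and Dlg1 was not lower. Dlg4 (ENSMUSG00000020886, chr11:70016942-70047522, plus strand) had 667, 702 and 713 CPM in syn Cre-positive brains, against 761, 802 and 827 CPM in gfap Cre-positive brains. Among Cre-negative brains it had 642, 689 and 707 CPM in the syn line, against 714, 789 and 831 CPM in the gfap line. The 12 syn libraries lay below the 12 gfap libraries, but narrowly, with the highest syn at 713.3 CPM and the lowest gfap at 713.7 CPM. Whether this gap holds under another scaling was not tested. The log2 fold change was −0.20 in each comparison (adjusted p 0.000917 and 0.000689 by edgeR), but 0.01 among Cre-negative libraries scaled to the pan-neuronal genes. Dlg3 had 218, 236.5 and 250.1 CPM in syn Cre-positive against 260.4, 271 and 273 CPM in gfap Cre-positive brains (−0.19, adjusted p 0.00341). Its Cre-negative values were 215, 234 and 236 CPM in the syn line, against 243, 251 and 297 CPM in the gfap line (−0.16, adjusted p 0.009, and 0.04 under the pan-neuronal scaling). Without gfap Cre-negative replicate 3, the library at 297 CPM, Dlg3 fell to −0.11 and was not called. Dlg2 had −0.16 and −0.13 with adjusted p 0.115 and 0.219, while Dlg1 had 0.02 and 0.13 with adjusted p 0.791 and 0.0526, and its share of Dlg RPKM was 9.26% in syn Cre-positive and 8.1% in gfap Cre-positive brains.

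The Dlg-associated proteins, which bridge the guanylate kinases and Shank, were lower in both comparisons for Dlgap1 and Dlgap3. Dlgap1 had 503, 559 and 583 CPM in syn Cre-positive brains, against 616, 662 and 699 CPM in gfap Cre-positive brains, with no overlap (−0.25, adjusted p 0.000632, edgeR). Among Cre-negative brains it had 552, 563 and 589 CPM in the syn line, against 572, 678 and 749 CPM in the gfap line, where 5 of 6 syn libraries lay below every gfap library (−0.25, adjusted p 0.000585). Dlgap3, the member best known from the striatum, had 187, 206 and 262.5 CPM in syn Cre-positive against 234, 255 and 283 CPM in gfap Cre-positive brains (−0.26, adjusted p 0.00678). Its Cre-negative values were 197, 222 and 248.5 CPM in the syn line, against 237, 243 and 294 CPM in the gfap line (−0.19, adjusted p 0.0374, and 0.01 under the pan-neuronal scaling). Dlgap4 was lower among Cre-positive brains (−0.14, adjusted p 0.0256, and 0.03 under that scaling) and had −0.07 among Cre-negative ones (adjusted p 0.25). Dlgap2 had log2 fold changes of −0.00 and −0.03 with intervals of about 0.2 on either side, and Begain, which binds the guanylate kinase domain, had −0.13 and −0.16 with adjusted p 0.201 and 0.117.

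Shank and Homer proteins form the deeper layer of the density. Of their 6 genes, Homer3 was lower in both comparisons and the other 5 were not called in either. Homer3 had 22.8, 27.3 and 30.2 CPM in syn Cre-positive brains, against 30.3, 31.5 and 37.15 CPM in gfap Cre-positive brains (−0.26, adjusted p 0.0224). Its Cre-negative values were 20.4, 25.2 and 28.7 CPM in the syn line, against 24.2, 29.7 and 35.4 CPM in the gfap line (−0.23, adjusted p 0.0374). Its exons overlap those of Ddx49 on the other strand, and the strand setting of the counts is not given. Reads from the shared part may therefore have been set aside as ambiguous. Shank1, the largest contributor to Shank RNA, averaged 513 ± 32.0 CPM in syn Cre-positive against 453 ± 34.8 CPM in gfap Cre-positive brains and 522 ± 43.4 against 465 ± 76.5 CPM in Cre-negative brains (SD, n = 6 each), with log2 fold changes of 0.18 and 0.17 and adjusted p 0.103 and 0.126. Shank3 had −0.15 and −0.14 (adjusted p 0.0949 and 0.108) and Shank2 0.00 and 0.15 (adjusted p 0.999 and 0.146). Homer1 had opposite signs, −0.20 among Cre-positive and 0.14 among Cre-negative brains (adjusted p 0.397 and 0.556), and Homer2 had −0.08 and −0.04 (adjusted p 0.491 and 0.746).

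The share of each gene in the summed Shank RPKM is a ratio that does not depend on library scaling, and it is given here without a test. Shares within the Dlg, Dlgap, Homer, neuroligin, Camk2 and Lrrtm genes were worked out too. How often such shares separate groups was not computed. Shank1 held 52.2 to 55.0% of Shank RPKM in syn Cre-positive libraries, against 48.2 to 50.3% in gfap Cre-positive ones, with no overlap. Shank3 held 24.7 to 28.8% in syn Cre-positive libraries, against 29.7 to 31.2% in gfap Cre-positive ones, also with no overlap. In Cre-negative libraries Shank3 held 24.3 to 26.3% in the syn line and 27.9 to 31.8% in the gfap line without overlap, while the Shank1 shares of 52.7 to 55.3% and 47.7 to 53.6% overlapped. Over all 12 syn against all 12 gfap libraries the shares of both genes overlapped. Exons of Shank1 and Shank3 overlap transcripts annotated on the other strand, which these counts may not keep apart.

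Among the actin and small GTPase regulators only Ddn was called in both comparisons. Cnksr2, a scaffold of Ras signalling, was lower among Cre-negative brains (−0.24, adjusted p 0.0114) and had −0.16 among Cre-positive ones (adjusted p 0.092). Synpo, the actin-binding protein of the spine apparatus, was lower among Cre-positive brains (−0.17, adjusted p 0.0194, and 0.00 scaled to the pan-neuronal genes) and had −0.12 among Cre-negative ones (adjusted p 0.0787). Baiap2, which bends the spine membrane, had −0.14 and −0.12 and Sipa1l1, a regulator of the small GTPase Rap, −0.11 and −0.08, none called. Kalrn, a guanine nucleotide exchange factor that drives spine growth, was at −0.04 and −0.01, with intervals within 0.17 of 0.

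The receptor-trafficking scaffolds held the member that was higher. Pick1, a PDZ protein that takes AMPA receptors into the cell, had 42.1, 43.8 and 44.5 CPM in syn Cre-positive brains, against 36.05, 39.9 and 41.3 CPM in gfap Cre-positive brains, with no overlap. Its log2 fold change was 0.13 (adjusted p 0.0467), and leaving out any of 8 of the 12 libraries ended the call, with adjusted p up to 0.123. Among Cre-negative brains it had 40.0, 44.5 and 47.4 CPM in the syn line, against 38.9, 41.0 and 46.5 CPM in the gfap line (0.09, adjusted p 0.196), and its exons are shared with the same-strand model Gm49486. Anks1b, a scaffold that binds the protein of Dlg4, had 282, 312 and 319 CPM in syn Cre-positive against 317, 338 and 353 CPM in gfap Cre-positive brains (−0.13, adjusted p 0.0158, and 0.04 under the pan-neuronal scaling). Among Cre-negative brains it had 279, 307 and 316 CPM in the syn line, against 333, 344.5 and 368 CPM in the gfap line, with no overlap (−0.18, adjusted p 0.00148, and 0.02 under that scaling). Grip1 was lower among Cre-negative brains (−0.23, adjusted p 0.021) and had −0.11 among Cre-positive ones (adjusted p 0.279), and Lrrc7, densin, had 0.14 and 0.09, not called.

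Gphn, the scaffold that holds glycine and GABA receptors at inhibitory synapses, was lower in both comparisons as well. It had 68.2, 71.4 and 75.9 CPM in syn Cre-positive brains, against 78.6, 81.05 and 85.1 CPM in gfap Cre-positive brains, with no overlap (−0.19, adjusted p 0.00427). Among Cre-negative brains its values were 68.6, 72.1 and 75.4 CPM in the syn line, against 72.3, 77.9 and 90.4 CPM in the gfap line (−0.13, adjusted p 0.0321, and 0.08 scaled to the pan-neuronal genes). Without gfap Cre-negative replicate 3, the value was −0.08 and was not called.

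**Figure D4:**
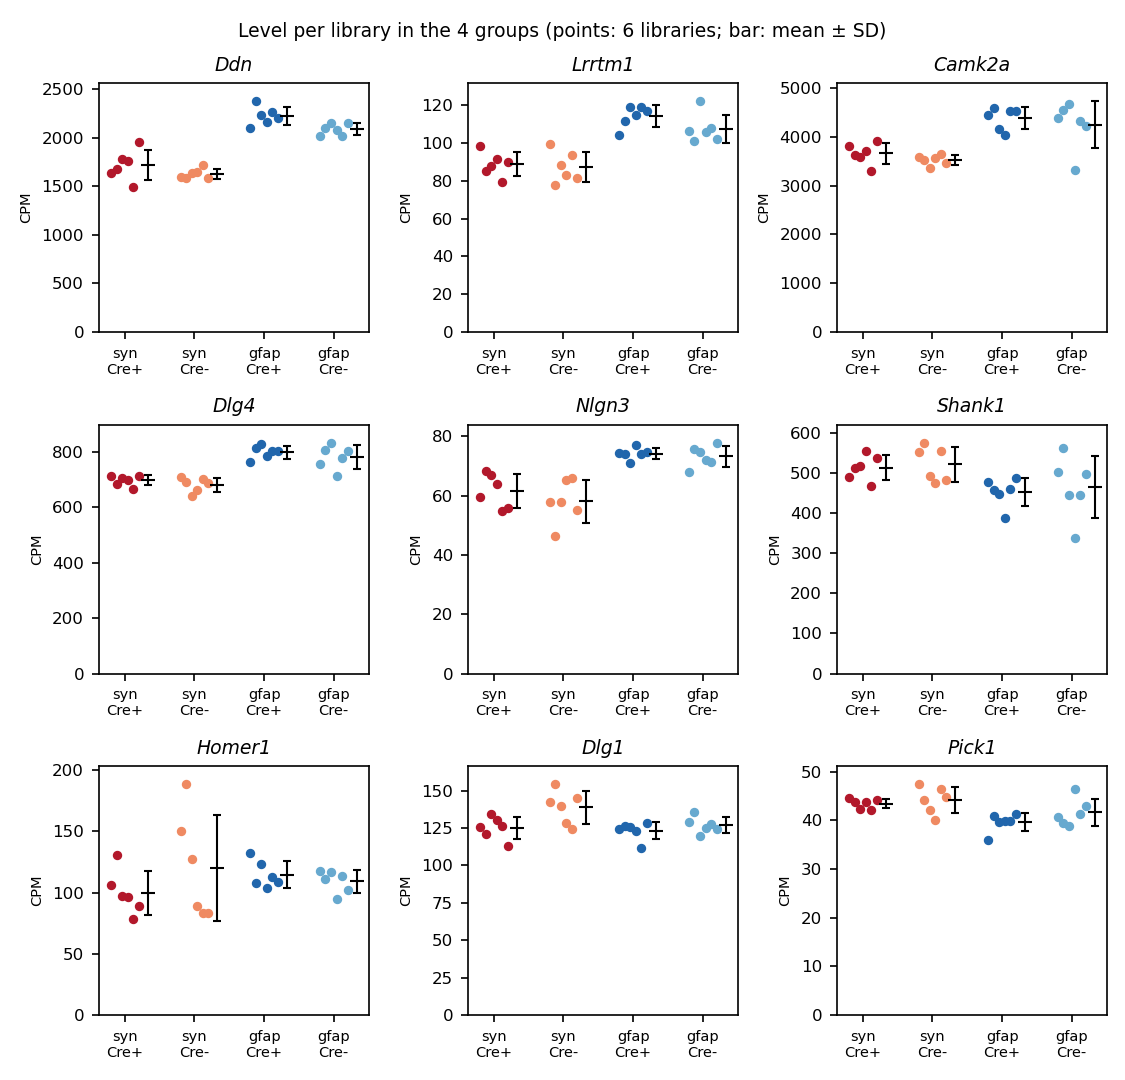
Levels in CPM of 9 of the genes in each of the 24 libraries, with mean and SD beside each group of 6; every axis starts at 0. All syn points lie below all gfap points for Ddn, Lrrtm1 and, narrowly, Dlg4. For Camk2a, 1 gfap Cre-negative library is low at 3323 CPM, and Homer1 spreads from 83.2 to 188 CPM in syn Cre-negative libraries.

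Promoter sequence from RefSeq, on GRCm38.p6, was at hand for 26 of the 34 genes, as 51 windows from 250 bases before to 50 bases after a transcript start. Windows of 2 genes called lower in both comparisons are shown because they lie far apart in base composition, with capitals marking the GC box GGGCGG or its reverse complement. The Lrrtm1 window is chr6:77242227-77242526, plus strand, and the Camk2b window is chr11:6065699-6065998, minus strand.
Lrrtm1: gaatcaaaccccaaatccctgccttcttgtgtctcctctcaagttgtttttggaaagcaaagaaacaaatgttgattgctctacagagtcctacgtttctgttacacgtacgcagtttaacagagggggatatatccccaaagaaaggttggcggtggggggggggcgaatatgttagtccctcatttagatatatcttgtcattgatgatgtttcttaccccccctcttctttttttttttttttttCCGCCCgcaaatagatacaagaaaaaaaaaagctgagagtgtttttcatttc
Camk2b: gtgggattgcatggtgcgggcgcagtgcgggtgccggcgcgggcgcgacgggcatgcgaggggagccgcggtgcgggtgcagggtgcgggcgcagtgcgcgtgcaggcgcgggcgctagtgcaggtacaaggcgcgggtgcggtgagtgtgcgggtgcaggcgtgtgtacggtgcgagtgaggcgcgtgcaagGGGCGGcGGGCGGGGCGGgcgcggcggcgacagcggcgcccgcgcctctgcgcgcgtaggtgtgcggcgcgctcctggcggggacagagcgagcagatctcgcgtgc

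The Lrrtm1 window is 40.7% G and C with 1 GC box, and the Camk2b window is 77.3% G and C with 3. Searched on both strands, the GC box stood in 28 of the 51 windows of the members (54.9%) and in 35.7% of the 32851 windows in the table. The windows of the members had a median G and C content of 60.3%, against 52.7% over the table, and several belong to 1 gene. The E-box CAGCTG stood in 10 of 51 windows (19.6%), against 16.3% over the table. The cAMP response element TGACGTCA was in 0 of 51, against 1.79%. In the Camk2b window the last 2 GC boxes overlap by 1 base. Dlgap2, Shank1, Shank2, Nlgn3, Lrrtm2, Camk2a, Synpo and Ddn had no window. A match in letters is no sign of a bound factor.

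Lists of other synaptic genes are read against the 14.7% of all genes lower and 12.8% higher among Cre-positive brains, and the 16.6% lower and 14.6% higher among Cre-negative ones. Of 20 further postsynaptic density and spine genes, 7 were lower among Cre-positive brains and 8 among Cre-negative ones, with 0 higher in either. The actin-binding spine protein spinophilin, Ppp1r9b, had log2 fold changes of −0.31 and −0.33 (adjusted p 7.64e-05 and 3.13e-05), and the calcineurin subunit Ppp3ca had −0.29 and −0.34 (adjusted p 0.000216 and 3.28e-05). Of 31 neurexins and other synaptic adhesion genes tested, 15 were lower and 1, Ptprd, was higher in each comparison, and Lrfn2 was at −0.38 and −0.36 (adjusted p 0.0016 and 0.00177). Of 13 inhibitory postsynaptic genes, 6 were lower among Cre-positive and 7 among Cre-negative brains, and 1, Igsf9b, was higher in each. Of 15 presynaptic release genes tested, 7 and 8 were lower and 0 higher, with Syp, the vesicle protein synaptophysin, at −0.23 and −0.32 (adjusted p 0.0016 and 5.30e-05). Of the glutamate receptors held by these scaffolds, 2 of 15 were lower and 1 higher among Cre-positive brains, and 5 lower and 1 higher among Cre-negative ones. The first of these shares, 13.3% lower, is near that of all genes, and the receptors had a list median of −0.03 and −0.06. Whether the receptor list differs from the scaffold list was not tested.

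**Figure D5:**
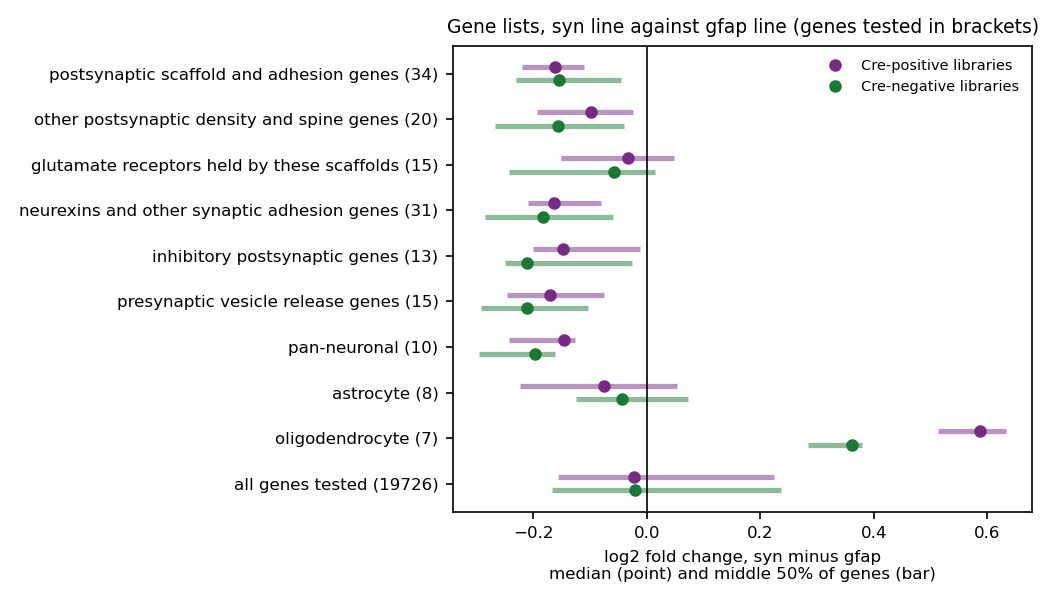
Median log2 fold change (point) and middle 50% of genes (bar) of syn minus gfap libraries for the 34 genes and other lists, among Cre-positive (purple, upper) and Cre-negative (green, lower) libraries. Synaptic and pan-neuronal lists lie left of 0 with TMM scaling, oligodendrocyte genes lie at 0.59 and 0.36, and all genes tested lie at −0.02. Scaled to the pan-neuronal genes, the median of the 34 genes becomes 0.01 and 0.05, below that of all genes tested, 0.15 and 0.19.

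Markers of cell types moved with the lines beside these genes. All 10 pan-neuronal genes had negative log2 fold changes in each comparison, and 5 were called lower among Cre-positive and 7 among Cre-negative brains. Their summed level ran from 3961 to 4266 CPM in syn Cre-positive libraries, against 4540 to 4753 CPM in gfap Cre-positive ones, and from 3962 to 4363 CPM in syn Cre-negative libraries, against 4666 to 4867 CPM in gfap Cre-negative ones. Oligodendrocyte genes were higher in the syn line, 7 of 7 among Cre-positive and 6 of 7 among Cre-negative brains, with sums of 5693 to 7625 CPM in syn Cre-positive libraries, against 3594 to 5299 CPM in gfap Cre-positive ones. Among Cre-negative libraries these sums were 5311 to 8136 CPM in the syn line, against 4056 to 5171 CPM in the gfap line. None of these markers was at 0 in any library, and the part of oligodendrocyte RNA in the results was not tested. Endothelial genes had median log2 fold changes of −0.37 among Cre-positive and −0.23 among Cre-negative brains, and forebrain excitatory neuron genes −0.28 and −0.20. GABAergic neuron genes had −0.16 and −0.10, microglia genes −0.12 and −0.07, astrocyte genes −0.07 and −0.04 and hippocampal genes −0.12 and −0.07. On the other side, thalamic genes had medians of 0.48 and 0.19, cerebellar genes 0.57 and 0.02 and striatal genes 0.11 and 0.08. Summed cerebellar genes ran from 60.7 to 184 CPM in syn Cre-positive libraries, against 70.0 to 88.75 CPM in gfap Cre-positive ones. The medians of these sums were close, 80.2 and 78.7 CPM, so the top syn value lay far above the median library. Single cerebellar genes ran from −0.41 to 1.59 in log2 fold change among Cre-positive brains. Summed thalamic genes ran from 77.4 to 207 CPM with a median of 79.3 CPM in syn Cre-positive libraries. In gfap Cre-positive ones they ran from 58.9 to 84.7 CPM with a median of 69.7 CPM. The part of these cell types and regions in the results was not tested. Choroid plexus RNA was uneven, with Ttr above 1000 CPM in 6 syn libraries, 3 of each genotype, and in 0 gfap libraries. Summed choroid plexus genes reached 5059 CPM in syn Cre-positive and 5324 CPM in syn Cre-negative libraries, against 274 CPM in gfap Cre-positive and 204 CPM in gfap Cre-negative ones. Without those 6 libraries, 6 members were lower among Cre-positive brains, against 3.36% of all genes, and 8 among Cre-negative ones, against 7.68%, with member medians of −0.12 and −0.11.

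Scaling the libraries to the 10 pan-neuronal genes asks how the members stood against other neuronal RNA. It moved the median of all genes from −0.02 to 0.15 among Cre-positive and from −0.02 to 0.19 among Cre-negative libraries. Under it, 2 members were lower and 3 higher among Cre-positive brains, where 0.421% of all genes were lower and 26.1% higher. Among Cre-negative brains 0 were lower and 6 higher, where 0.725% of all genes were lower and 34.9% higher. Ddn and Lrrtm1 were the 2 that were lower, at −0.20 (adjusted p 0.0152) and −0.19 (adjusted p 0.0193), against −0.15 and −0.10 without a call among Cre-negative brains. Relative to the median of all genes with TMM scaling, Ddn stood at −0.35 among Cre-positive libraries. Of the 34 members, 28 stood below that median among Cre-positive libraries and 27 among Cre-negative ones. A change of scaling shifts all genes by nearly the same amount. These distances therefore could hardly change under the pan-neuronal scaling, and their agreement is no check of it.

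Within groups the 34 genes tended to deviate together, and other synaptic genes deviated with them. Over the 24 libraries, each taken as a log2 deviation from the mean of its group, 435 of the 561 pairs of members had a positive correlation, with a median r of 0.31. Without the 2 libraries farthest from the middle, gfap Cre-negative replicate 4 and syn Cre-positive replicate 5, the median r was 0.22 and 400 pairs were positive. These points share library, depth scaling and tissue makeup, so the values describe these libraries. The share of positive pairs among other genes was not computed. Other synaptic lists followed the member mean too, with r of 0.93 for other postsynaptic density and spine genes and 0.88 for glutamate receptors. Presynaptic genes had 0.78, inhibitory postsynaptic genes 0.75 and other adhesion genes 0.57. Lists of cell type and region markers ran from −0.46 to 0.38. Dlgap2 with 0.91 and Dlgap1, Sipa1l1 and Shank2 with 0.87, 0.87 and 0.85 followed the mean of the other members most closely, whereas Begain at −0.35, Pick1 at −0.29 and Nrgn at −0.17 ran against it. The library of gfap Cre-negative replicate 4 was below its group mean in 29 of 34 members, by 0.17 on average, and it also had the lowest Slc1a2 of all libraries, 2494 CPM. Across the 34 members, a longer exon length went with a lower value in that library (Spearman rho −0.50) and with a higher r with the other members (rho 0.51), a description across genes, which are not independent replicates. The rho of exon length with the deviation was −0.41 in gfap Cre-positive replicate 4 but 0.19 in syn Cre-positive replicate 5. Syn Cre-positive replicate 5 was below its group mean in 31 of 34 members, and gfap Cre-negative replicate 3 stood highest, above it in 27 of 34.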

How the data were processed

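Libraries of total RNA were made from the brains of 24 mice. The labels' protocols name a lipid tissue kit and an Illumina instrument. The deposited values are whole-number counts per gene from the authors, not normalized. HISAT2, HTSeq 0.6.0, DESeq2 1.6.3 and mm10 are named per the submitters' processing notes, with no role or order; no source used here gives the annotation release or strand setting. Symbols and coordinates come from GENCODE M21 on GRCm38, which matched 52489 of 52636 identifiers. The 5 summary lines of each file name no gene and were left out, and reads outside genes took 4.47 to 11.1% of a file.

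Groups follow the labels. Replicate numbers only name a library, in the order of accessions. Within groups, all 60 library pairs differed beyond counting noise (chi-square per gene 6.65 to 134), so each library counted as 1 replicate. The largest values were in pairs with syn Cre-negative replicate 5. Counts were filtered with filterByExpr, scaled by TMM and fitted with the edgeR 4.0.16 quasi-likelihood test (R 4.3.3), in 1 model of 4 groups with 20 residual degrees of freedom and a common dispersion of 0.0198. Calls are Benjamini-Hochberg adjusted p under 0.05 over 19726 genes. The code was tested on simulated data. The 95% intervals are for the log2 fold change, a contrast of group means. They rest on the spread between mice within the 4 groups and do not give the range of single mice. Alternatives were RLE and upper-quartile scaling, 2 other filters, DESeq2 1.42.0, limma-voom (limma 3.58.1) with quality weights or with the leading number of the library title as a random block, the compared groups alone, and leaving out each library. Leaving out the 6 libraries over 1000 CPM of Ttr and scaling to 10 pan-neuronal genes were chosen after seeing the data. The members, gene lists and tests were chosen with earlier results of these data known. Members called in both line comparisons are given in full, the 4 members of smallest p in each Cre comparison as values, and of each other list at most 4 genes.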

Additional observations from a re-analysis of the deposited data

Results flagged for a closer look

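In each of the 4 groups and for each of the 34 genes, the highest and lowest of the 6 libraries were compared with the rest of the group. In 13 of 136 such groups 1 library stood apart beyond the 95% limit of Dixon's ratio, where independent, normally distributed values give about 1 in 20. These genes share libraries and deviate together, and the rate among other genes was not computed, so whether 13 is an excess cannot be told. In gfap Cre-negative replicate 4, Dlg2 was at 267 CPM (next library 378 CPM), Camk2a at 3323 CPM (next 4211 CPM) and Sipa1l1 at 296 CPM (next 412 CPM). In gfap Cre-negative replicate 3, Dlg3 was at 297 CPM (next 261 CPM) and Lrrtm1 at 122 CPM (next 108 CPM), and in replicate 2 of that group Dlgap3 was at 294 CPM (next 255 CPM). Among gfap Cre-positive libraries, replicate 5 had Dlg1 at 112 CPM (next 123 CPM) and Begain at 114.5 CPM (next 105 CPM), replicate 3 had Homer3 at 37.15 CPM (next 31.5 CPM), and replicate 1 had Pick1 at 36.05 CPM (next 39.6 CPM). Begain was at 116 CPM in syn Cre-positive replicate 6 (next 97.5 CPM). In syn Cre-negative libraries, Dlg3 was at 215 CPM in replicate 4 (next 229 CPM) and Anks1b at 279 CPM in replicate 6 (next 303.5 CPM). Of these 13, 6 were in gfap Cre-negative libraries.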

How the results depend on the processing

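In the Cre comparisons no member was called under any alternative run. In the line comparisons, the members lower in the main test stayed negative under all alternatives but the scaling to the pan-neuronal genes, where 13 of 17 did among Cre-positive and 10 of 16 among Cre-negative brains. Among Cre-positive brains the count lower (17) became 10 with upper-quartile scaling, 10 with a filter of at least 1 CPM in 6 libraries, 6 without the Ttr-rich libraries and 2 with pan-neuronal scaling. The count higher (1) became 2 with upper-quartile scaling, the 1 CPM filter, quality weights or the compared groups alone, 3 with pan-neuronal scaling, and 0 with no filter, the random block or without the Ttr-rich libraries; leaving out 1 library gave 0 to 1. Among Cre-negative brains the count lower (16) became 10 with the compared groups alone, 8 without the Ttr-rich libraries and 0 with pan-neuronal scaling, and 9 to 19 when 1 library was left out, lowest without gfap Cre-negative replicate 3. The count higher (0) became 1 with RLE, upper-quartile or DESeq2, 2 with the 1 CPM filter, 6 with pan-neuronal scaling, and 0 to 2 when 1 library was left out. Upper-quartile scaling split all genes into 2913 higher and 1532 lower among Cre-positive and 3219 higher and 2288 lower among Cre-negative libraries. The main test called 2899 of 19726 genes lower among Cre-positive and 3277 among Cre-negative libraries. With the 1 CPM filter these became 1574 and 2163 of 15355. Among Cre-negative libraries, the compared groups alone gave 1727 of 18707 genes lower. Leaving out gfap Cre-negative replicate 3 gave 2360 of 19949. Leaving out replicate 4, where 19 members were lower, gave 2696 of 19941. Pan-neuronal scaling turned 14 members from negative to positive among Cre-positive and 18 among Cre-negative brains, and every other alternative, leaving out single libraries included, turned at most 4 members, none of them called in the main test. Directions of members called with either scaling reversed under it: among Cre-positive brains Dlgap4 (0.033), Nlgn2 (0.0189), Synpo (0.0039) and Anks1b (0.0387), and among Cre-negative brains Dlg3 (0.0415), Dlg4 (0.0077), Dlgap3 (0.0111), Dlgap4 (0.1318), Nlgn2 (0.0509), Kalrn (0.1916), Anks1b (0.0245) and Gphn (0.0766). Leaving out 1 library ended the call, among Cre-positive brains, for Dlgap4, Nlgn1, Nrgn, Synpo, Homer3, Nlgn2, Anks1b and Pick1, with adjusted p up to 0.0815, 0.093, 0.0928, 0.06, 0.0731, 0.0645, 0.0599 and 0.123. The libraries concerned were gfap Cre-positive replicates 1 to 6 and syn Cre-positive replicates 1 to 6, each for at least 1 of these genes. Among Cre-negative brains the calls of Dlg3, Cnksr2, Grip1, Nlgn2, Gphn, Dlgap3 and Homer3 were lost, with adjusted p up to 0.0559, 0.055, 0.0644, 0.0744, 0.19, 0.109 and 0.155. Removing gfap Cre-negative replicate 3 ended each of these 7, and syn Cre-negative replicates 1 to 6 or gfap Cre-negative replicates 2, 4, 5 and 6 ended some of Grip1, Nlgn2, Gphn, Dlgap3 and Homer3. The call was kept in both comparisons whichever 1 library was left out for 7 members: Camk2a, Camk2b, Ddn, Dlg4, Dlgap1, Lrrtm1 and Nlgn3. No paired analysis was possible because replicate numbers follow accession order; the correlation of libraries sharing a title number was 0.0343.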

Other observations

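The highest Homer1 of all 24 libraries, 188 CPM in syn Cre-negative replicate 2, came with the highest levels of 6 genes that neuronal activity induces, looked up after the Homer1 values were seen. In that library Arc was at 214.5 CPM (second highest library 135 CPM), Egr1 at 256 CPM (second 126 CPM) and Fos at 27.0 CPM (second 18.2 CPM). Nr4a1 was at 98.6 CPM (second 64.8 CPM), Npas4 at 29.4 CPM (second 21.1 CPM) and Fosb at 14.99 CPM (second 9.58 CPM). Junb, a further gene of this kind, was at 50.9 CPM there, the third highest of 24, with the highest, 58.65 CPM, in gfap Cre-negative replicate 4. The second highest Homer1, 150.1 CPM in syn Cre-negative replicate 1, came with the second highest Fosb. What set these libraries apart was not tested.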
